A study of Mus musculus with 12 samples.

Results

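Alveolar type 2 (AT2) cells, the epithelium that makes surfactant in the lung, were examined for 8 genes that move sodium, chloride and so water across the alveolar wall. The genes were a fixed list, chosen by name: Scnn1a, Scnn1b and Scnn1g, Cftr, Atp1b1, Slc12a2, Nedd4l and Sgk1. All 8 were found among the 21878 genes of the deposited table, and all 8 were among the 10675 genes that passed the filter on low values (1 FPKM or more in 3 samples or more). Messenger RNA was measured in 12 samples, 3 in each of 4 groups. AT2-PBS and AT2-BLM were cells of Atg5 f/f mice, which carry the floxed gene without Cre, given PBS or bleomycin (BLM, 2 U/kg, a drug that injures the alveolar epithelium). Atg5-/- AT2-PBS and Atg5-/- AT2-BLM were cells of Nkx2.1Cre;Atg5 f/f mice given PBS or BLM, so both arms of the study carried the floxed allele. Nkx2.1Cre is active throughout the lung epithelium from development on, so the loss of Atg5, a gene needed to build autophagosomes, was neither limited to AT2 cells nor started with the injury. Mice were 8 to 12 weeks old. Cells were harvested on day 14, although the methods name no day for Atg5-/- AT2-PBS. They were sorted as epithelial (EpCAM positive) and negative for endothelial and leukocyte markers and for CD24 and Sca-1. Whether each sample came from 1 mouse or from several is not stated, so p-values measure the spread between these samples only.

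Fluid leaves the alveolus because the epithelium pumps sodium out of the airspace, and water follows. Sodium enters the cell through the apical epithelial sodium channel (ENaC), built from the alpha, beta and gamma subunits that Scnn1a, Scnn1b and Scnn1g encode. It leaves through the basolateral Na,K-ATPase, whose beta subunit Atp1b1 brings the pump to the membrane. Cftr is the apical chloride channel mutated in cystic fibrosis, and Slc12a2 encodes NKCC1, the cotransporter that loads epithelial cells with chloride for secretion. Nedd4l is the ubiquitin ligase that removes ENaC from the surface. Sgk1, a kinase induced by glucocorticoids and aldosterone, phosphorylates Nedd4l and so keeps ENaC in place.

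Scnn1g and Scnn1b are neighbours on the same strand of mouse chromosome 7. In the GENCODE annotation of mm9, the build of the deposited values, Scnn1g runs from 128877993 to 128911989 and Scnn1b from 129008591 to 129062029, 96.6 kb further on. Scnn1a (chromosome 6, 125271358 to 125294958) lies apart from them. Other members are Cftr (chromosome 6, 18120687 to 18272768), Atp1b1 (chromosome 1, 166367398 to 166388486, minus strand) and Sgk1 (chromosome 10, 21601990 to 21719709). RefSeq promoters on GRCm38.p6 were at hand for 5 of the 8 genes, in 10 windows, of which 6 belonged to Sgk1. The 250 bases before the start are shown for Scnn1g and Scnn1b, the pair that moved most closely together, and for the Sgk1 start that holds a full glucocorticoid response element. Capitals mark matches, on either strand, to the GC box GGGCGG, to CACTTG (a core of NKX2-1 sites) and to the response element, which is AGAACA and TGTTCT with 3 bases between them.
Scnn1g, chr7:121734229-121734478, plus strand: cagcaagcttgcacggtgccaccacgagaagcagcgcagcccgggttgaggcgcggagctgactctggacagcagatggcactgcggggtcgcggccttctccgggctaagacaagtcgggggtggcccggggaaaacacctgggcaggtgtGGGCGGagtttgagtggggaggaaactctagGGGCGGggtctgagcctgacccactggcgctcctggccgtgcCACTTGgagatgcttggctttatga
Scnn1b, chr7:121864788-121865037, plus strand: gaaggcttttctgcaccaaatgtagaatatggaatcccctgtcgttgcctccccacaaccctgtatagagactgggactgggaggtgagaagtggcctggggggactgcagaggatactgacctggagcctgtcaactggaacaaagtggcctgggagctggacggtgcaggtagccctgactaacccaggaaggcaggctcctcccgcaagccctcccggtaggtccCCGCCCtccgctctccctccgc
Sgk1, chr10:21993640-21993889, plus strand: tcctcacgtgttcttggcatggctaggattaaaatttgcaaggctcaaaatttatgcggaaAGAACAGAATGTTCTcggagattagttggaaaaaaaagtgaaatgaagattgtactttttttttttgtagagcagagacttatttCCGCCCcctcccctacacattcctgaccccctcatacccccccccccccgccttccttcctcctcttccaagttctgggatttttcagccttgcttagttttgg
The GC box was found 2 times before Scnn1g (98 and 67 bases before the start), 1 time before Scnn1b (22 bases) and 1 time before this Sgk1 start (104 bases). It is common, being present in 32.7% of the 32851 promoter windows searched. CACTTG stood 25 bases before the Scnn1g start and occurs in 11.6% of windows. The response element, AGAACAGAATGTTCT, began 189 bases before this Sgk1 start and was present in 3 of the 32851 windows (0.00913%). The other Sgk1 windows did not hold it, and this window is shown because it does. The AP-1 site TGANTCA (6.75% of windows) and TATAAA (12.4%) had no match in these 3 windows. TATAAA did stand before other Sgk1 starts, 28 and 11 bases upstream. These are matches of letters in a window, and no binding was measured.

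In AT2-PBS, without injury, the pump subunit was by far the most abundant of the 8 transcripts. Slc12a2 (58038332 to 58106475) and Nedd4l (65047410 to 65377480) both lie on mm9 chromosome 18. FPKM counts fragments relative to transcript length and to the mapped total, so levels can be compared between genes. Atp1b1 had a mean of 461.7 FPKM (SD 12.9, n = 3). Scnn1a (14.9, SD 2.11), Slc12a2 (14.9, SD 4.62) and Sgk1 (13.4, SD 9.44) followed and did not differ beyond their spread. Scnn1b (7.93, SD 2.10) and Nedd4l (6.25, SD 1.81) came next, again within their spread. Scnn1g (3.84, SD 0.467) and Cftr (3.71, SD 0.876) were lowest and lay within each other's spread. The alpha subunit of ENaC was thus the most abundant of the 3 and the gamma subunit the least abundant in every AT2-PBS sample. Over all 12 samples the highest value was 1.54 times the lowest for Atp1b1, and 25.2 times the lowest for Sgk1. The other 6 genes lay between these.

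**Figure D1:**
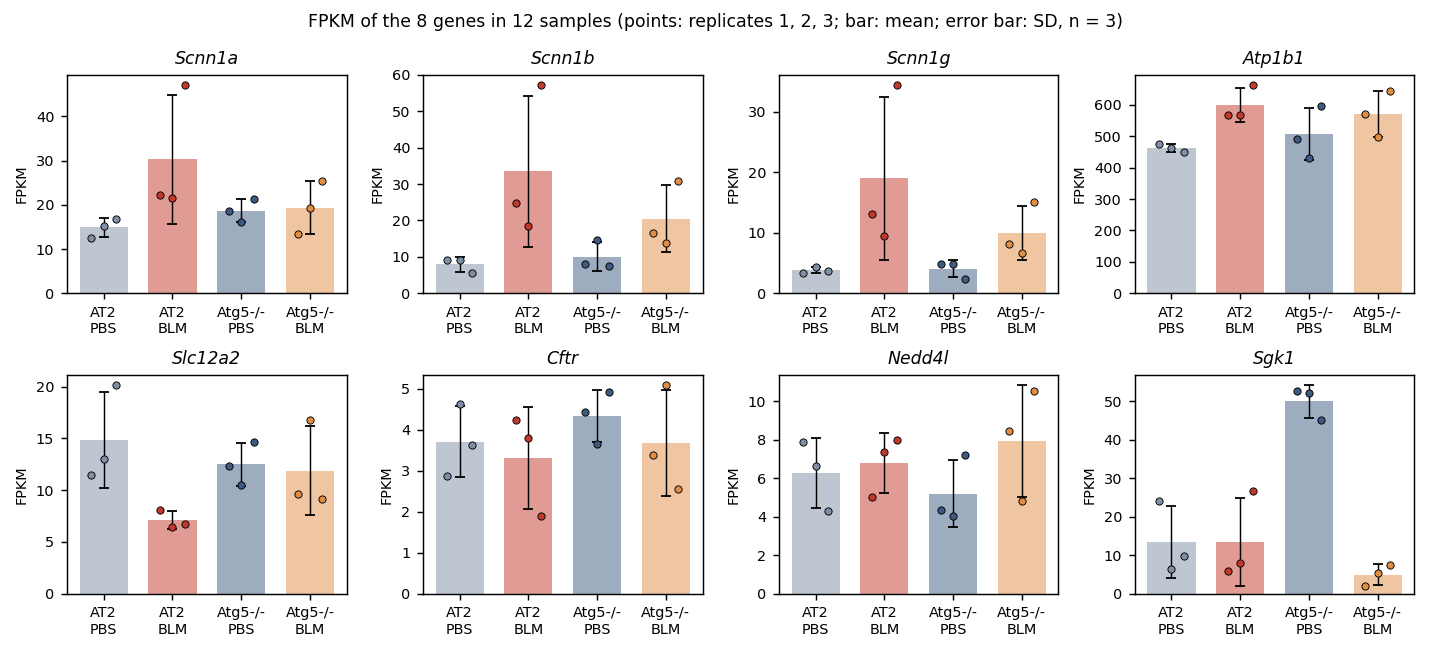
FPKM (vertical axis, linear, from 0) of each of the 8 genes in the 4 groups. Points are replicates 1, 2 and 3 from left to right, bars are means and error bars are SD (n = 3). The 3 ENaC genes are highest in AT2-BLM replicate 3, Slc12a2 is lowest in AT2-BLM, and Sgk1 lies between 45.0 and 52.5 FPKM in the 3 Atg5-/- AT2-PBS samples and no higher than 26.6 FPKM elsewhere.

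Some features of the libraries touch these results. AT2 markers were abundant in every sample (Lamp3 from 304 to 765 FPKM), although some of them changed between groups, as given below. Sftpc was listed at 0 in 11 of 12 samples, a value that cannot be read as absence. Atg5 itself was not lower in a way that marks the genotype (6.01 to 12.5 FPKM in AT2-PBS, 6.72 to 10.1 FPKM in Atg5-/- AT2-PBS), so the genotype is that of the labels. The Y-linked gene Eif2s3y was at 1 FPKM or more in 5 libraries (AT2-PBS 2 and 3, AT2-BLM 3, Atg5-/- AT2-BLM 2 and 3) and lower in the other 7, among them all 3 of Atg5-/- AT2-PBS, although the methods name male mice. Insulin transcripts stood at about the same level in 3 libraries (Ins2 from 1949 to 2003 FPKM in AT2-PBS 1 and Atg5-/- AT2-PBS 1 and 2). Summed FPKM of 8 leukocyte markers was 380 to 507 in Atg5-/- AT2-PBS and 9.54 to 137.9 in the other groups. Sums of club cell, fibroblast and liver markers were also higher in every Atg5-/- AT2-PBS sample than in any other. Bulk values cannot tell fewer cells of a type from less RNA per cell.

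The first comparison, AT2-BLM with AT2-PBS, asks what injury did in cells with Atg5. The ENaC genes were higher after BLM, with the beta and gamma subunits up most, and the chloride-loading cotransporter Slc12a2 was lower. Differences were fitted with limma on log2(FPKM + 1), which understates the change of low values, and genes were called by the criterion of the study, an unadjusted p under 0.05 with a change of 1.4-fold or more. By that criterion 20.6% of all tested genes were called higher and 7.77% lower, and 17.8% had a Benjamini-Hochberg adjusted p under 0.05. Of the 8 genes 3 were called higher and 1 lower, 3 of them with an adjusted p under 0.05. The 4 called genes are a larger share than among all genes, but the list is short and no test was made of it. The median log2 fold change of all genes was 0.17, against 0.24 for the 8 genes, and it was -0.02 after quantile normalization, so changes near this size depend on the scaling. Of all calls 72.6% were higher ones with values as deposited, 46.9% once quantile-normalized, 50.9% with median-ratio scaling and 43.4% with scaling to Cdh1. The 4 called members kept their direction under each of these, although Scnn1a was no longer called after scaling to Cdh1 (0.66).

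Scnn1b was at 9.05, 9.24 and 5.50 FPKM in AT2-PBS and at 24.9, 18.6 and 57.2 FPKM in AT2-BLM. The groups did not overlap, as was true in 1 or the other direction of 40.2% of all tested genes, and AT2-BLM replicate 3 stood highest. Scnn1b rose 4.23-fold in mean FPKM. In the fit its log2 fold change was 1.82 (SE 0.41, adjusted p = 0.0122, limma), which is 3.53-fold. Scnn1g was at 3.42, 4.34 and 3.75 FPKM in AT2-PBS and at 13.1, 9.40 and 34.4 FPKM in AT2-BLM. Its groups were also apart, and it rose by 1.85 on the log2 scale (SE 0.41, adjusted p = 0.0120, limma). Scnn1a, the subunit that can form a channel without the others, was at 12.6, 15.3 and 16.8 FPKM and then at 22.2, 21.5 and 47.1 FPKM. It met the criterion with a smaller change of 0.89 (SE 0.29), with groups apart, but its adjusted p was 0.0526 (limma). Without AT2-BLM replicate 3 the log2 fold changes were 0.53 for Scnn1a, 1.36 for Scnn1b and 1.33 for Scnn1g, and all 3 genes were still called. With the 3 insulin-containing libraries left out Scnn1a (0.78) was not called, and among the 7 libraries with little Eif2s3y Scnn1b was at 1.16. Markers of AT1 cells, the flat gas-exchange cells that AT2 cells can give rise to, moved the same way: 7 of 9 tested were called higher (Pdpn from 1.00 to 6.57 FPKM in AT2-PBS and from 31.2 to 62.5 FPKM in AT2-BLM), and their summed FPKM was highest in the same replicate 3. The part of these markers in the ENaC change was not tested.

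Slc12a2 was at 11.5, 13.0 and 20.1 FPKM in AT2-PBS and at 8.10, 6.45 and 6.71 FPKM in AT2-BLM. All AT2-BLM samples were lower, and the gene fell by 0.94 on the log2 scale (SE 0.25, adjusted p = 0.0247, limma). Among the 7 libraries with little Eif2s3y the change was -0.60 and did not meet the criterion. Markers of other cells moved in this comparison too. Called lower were 3 of 5 club cell genes, and called higher were 5 of 7 leukocyte and 4 of 5 liver genes. Of 2 tested ionocyte markers 1 was called lower, with a median log2 fold change of -0.36 for the 2. The summed FPKM of the 4 listed ionocyte markers was lower in every AT2-BLM sample (13.2 to 13.7 against 24.7 to 38.2). Among 9 tested AT2 markers 3 were called lower and 1 higher. The part of these markers in the Slc12a2 and ENaC changes was not tested. Atp1b1 was at 475, 461 and 449 FPKM and then at 567, 568 and 663 FPKM. Its groups were apart, as they were for 40.2% of all genes, but its change of 0.37 (SE 0.16) was under 1.4-fold and its adjusted p was 0.123 (limma). Cftr (log2 fold change -0.16, SE 0.27), Nedd4l (0.12, SE 0.30) and Sgk1 (-0.08, SE 0.54) had overlapping groups and were not called. The sign for Nedd4l turned under each other scaling tried, and that for Sgk1 turned without AT2-PBS replicate 1 or AT2-BLM replicates 1 or 2. Sgk1 was uneven within both groups, at 24.1, 6.32 and 9.74 FPKM in AT2-PBS and at 5.83, 7.93 and 26.6 FPKM in AT2-BLM.

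**Figure D2:**
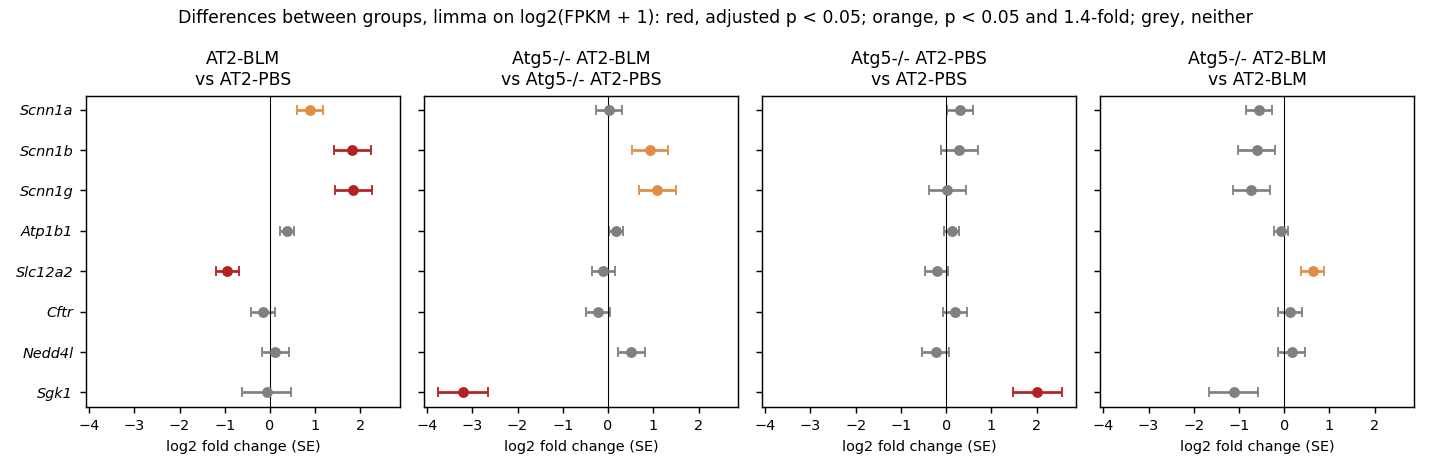
Log2 fold change of the 8 genes in 4 comparisons (points, limma on log2(FPKM + 1); error bars, SE). Scnn1b, Scnn1g and Slc12a2 pass an adjusted p of 0.05 in AT2-BLM against AT2-PBS, and Sgk1 passes it in the 2 comparisons that involve Atg5-/- AT2-PBS.

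The proportions of the ENaC subunits were compared within each sample. In AT2-PBS there were 0.272, 0.283 and 0.224 Scnn1g per Scnn1a (ratio of FPKM), and in AT2-BLM 0.594, 0.437 and 0.731. In Atg5-/- cells the ratio was 0.264, 0.300 and 0.114 with PBS and 0.609, 0.345 and 0.597 with BLM. Every BLM sample was above every PBS sample, in both genotypes. The log2 difference was 1.15 in cells with Atg5 and 1.27 in Atg5-/- cells, each with an exact two-sided permutation p of 0.1, the smallest that 3 samples against 3 allow. Taken over both genotypes, with samples permuted within each genotype, the difference was 1.21 (exact permutation p = 0.005, the smallest that 400 relabelings allow, adjusted p = 0.1 over the 20 ratio tests made). The ratio of Scnn1b to Scnn1a was 0.719, 0.603 and 0.328 in AT2-PBS and 1.12, 0.864 and 1.21 in AT2-BLM. It overlapped between the groups of Atg5-/- cells, at 0.433, 0.915 and 0.353 with PBS and 1.24, 0.711 and 1.22 with BLM. Over both genotypes the difference was 1.00 (exact permutation p = 0.015, adjusted p = 0.15). For Scnn1g to Scnn1b the log2 difference over both genotypes was 0.21 (exact permutation p = 0.275). Across the 12 samples log2(FPKM + 1) of Scnn1b and Scnn1g correlated at r = 0.957, against 0.744 and 0.785 for either with Scnn1a. These 12 points share the study groups and carry no p. No ratio passed the adjustment, and the ratios were chosen after values were seen.

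**Figure D3:**
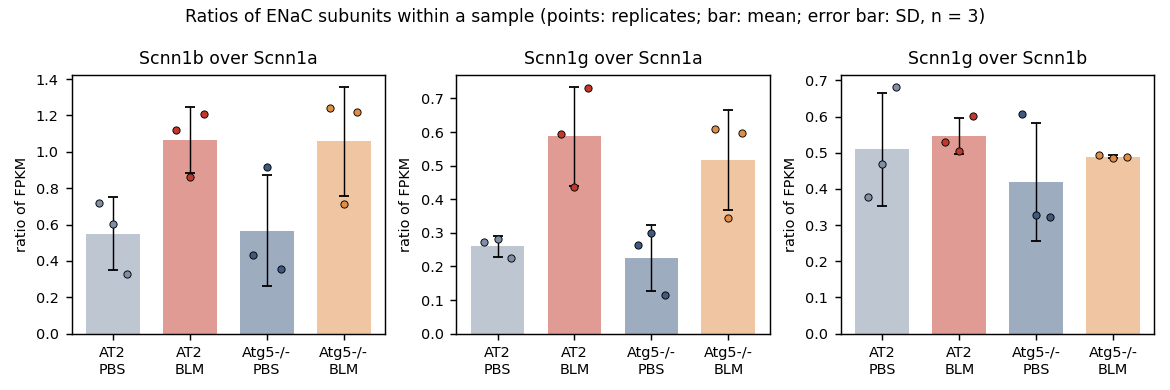
Ratios of FPKM between subunits within each sample (vertical axis, linear, from 0; points, replicates 1, 2 and 3; bars, mean; error bars, SD, n = 3). Scnn1g over Scnn1a is between 0.114 and 0.300 in the 6 PBS samples and between 0.345 and 0.731 in the 6 BLM samples.

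Other genes of the same transport system were followed in 6 lists, by counts of calls and by the genes with an adjusted p under 0.05. The share to set beside each count for AT2-BLM against AT2-PBS is that of all tested genes, 20.6% called higher and 7.77% lower. No list was tested as a set. After BLM, 4 of 8 tested Na,K-ATPase subunits and FXYD regulators were called higher and 0 lower. Fxyd3 (1.61, with overlapping samples), Fxyd4 (0.83, from under 0.1 FPKM) and Fxyd5 (1.37), small membrane proteins that tune the pump, rose. Of 7 proteases that cut ENaC and their inhibitors, 2 were called higher: St14 (matriptase, 0.77, SE 0.16) and its inhibitor Spint1 (0.64, SE 0.15), the latter not without AT2-BLM replicate 3 (0.47). Spint1 was also not called after quantile (0.41), median-ratio (0.45) or Cdh1 scaling (0.40), and St14 not after Cdh1 scaling (0.53).

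Of 18 tested regulators of ENaC and NKCC1, 2 were called higher and 1 lower. Hsd11b2, the enzyme that shields the mineralocorticoid receptor from glucocorticoids, rose from 1.44, 1.05 and 2.43 FPKM to 7.65, 6.92 and 10.04 FPKM (1.82, SE 0.28, adjusted p = 0.00208, limma). Nr3c2, that receptor, fell by 0.84 (SE 0.21, adjusted p = 0.0208). Wnk4, a kinase that acts on cation-chloride cotransporters and ENaC, rose by 0.83 (SE 0.20). Among 16 tested chloride, bicarbonate and proton transporters 7 were called higher and 3 lower. Slc26a4 (pendrin, a chloride-bicarbonate exchanger) had the largest change of the 6 lists, from 6.29, 6.57 and 6.42 FPKM to 77.7, 81.3 and 42.5 FPKM (3.14, SE 0.43, adjusted p = 0.00112). Ano1, a calcium-activated chloride channel, rose by 1.60, and Slc9a3r1 (NHERF1, a scaffold that holds Cftr at the apical membrane) by 1.13, although Cftr itself was not called. Slc12a4 (0.80) and Slc12a7 (0.94), potassium-chloride cotransporters that carry chloride out of the cell, rose where Slc12a2 fell. Slc26a6 fell by 0.71 and Slc9a3r2 (NHERF2) by 0.89.

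Of 6 potassium channel genes 1 was called higher and 1 lower, the latter Kcne2 (-1.12, adjusted p = 0.00742, limma), a channel beta subunit. Of 2 tested aquaporins, Aqp5 (0.36) and Aqp1 (0.27) were not called. The medians of the 6 lists lay between -0.18 and 0.48, around the 0.17 of all genes.

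**Figure D4:**
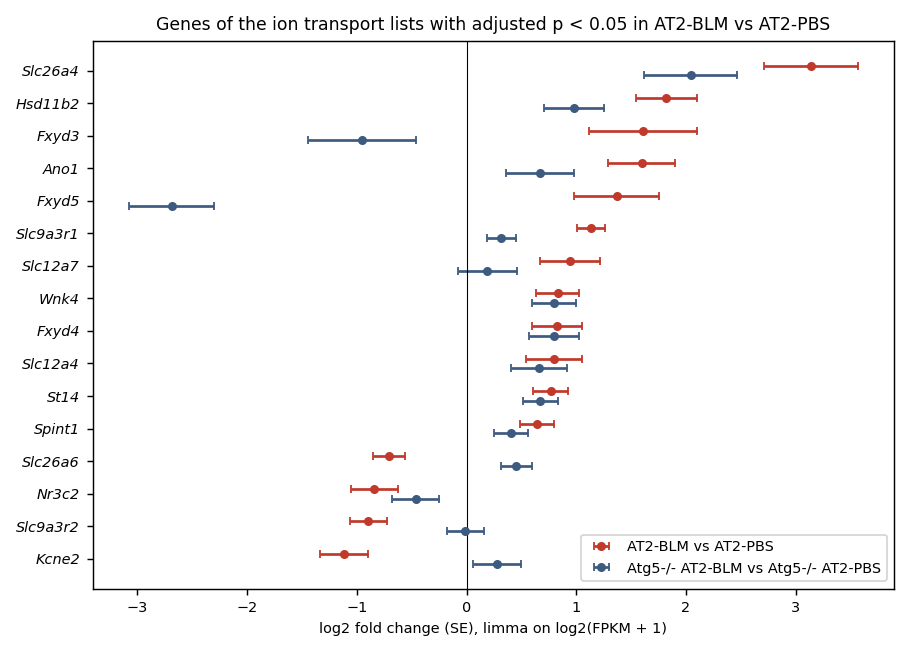
Log2 fold change (points; SE as error bars; limma on log2(FPKM + 1)) of 16 of the 17 genes of the 6 lists with an adjusted p under 0.05 in AT2-BLM against AT2-PBS, in cells with Atg5 (red) and in Atg5-/- cells (blue). Slc26a4 and Hsd11b2 lie to the right of 0 in both, and Fxyd5 lies at 1.37 in red and at -2.69 in blue.

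The study asked next what the loss of Atg5 did during injury. In Atg5-/- AT2-BLM against AT2-BLM few genes of any kind differed: 2.04% of all tested genes were called higher, 3.12% lower, and 0.00937% (1 gene) had an adjusted p under 0.05. Higher calls were 39.6% of all calls as deposited, 53.5% after median-ratio scaling and 79.8% after scaling to Cdh1. Of the 8 members, Slc12a2 alone was called. It was at 9.67, 16.8 and 9.16 FPKM against 8.10, 6.45 and 6.71 FPKM in AT2-BLM, so every Atg5-/- sample was higher, as was true in 1 or the other direction of 13.4% of all genes. Its change was 0.63 (SE 0.25, adjusted p = 0.620, limma), and it was not called when AT2-BLM replicate 2 (0.57), AT2-BLM replicate 3 (0.60) or the second Atg5-/- AT2-BLM sample (0.37) was left out, nor after scaling to Cdh1 (0.78). The 3 ENaC genes had lower means in Atg5-/- AT2-BLM with overlapping samples. Scnn1a was at 13.5, 19.3 and 25.3 FPKM (log2 fold change -0.56, 95% interval -1.20 to 0.07), Scnn1b at 16.7, 13.7 and 31.0 FPKM (-0.61, -1.50 to 0.28) and Scnn1g at 8.22, 6.66 and 15.1 FPKM (-0.73, -1.63 to 0.16). None was called with all samples in the fit described. With a Y-linked covariate added (the mean log2 level of Ddx3y, Eif2s3y, Kdm5d and Uty), Scnn1a (-0.77) and Scnn1g (-0.94) were called and Scnn1b (-0.76) was not. The samples kept also changed this: without Atg5-/- AT2-BLM replicate 3 the values were -0.77, -0.94 and -1.04 and all 3 met the criterion, while without AT2-BLM replicate 3 Scnn1a was at -0.21, Scnn1b at -0.15 and Scnn1g at -0.22. Without AT2-BLM replicate 2 the 3 genes were also called (-0.75, -0.94 and -1.10), and without AT2-BLM replicate 1 Scnn1a was (-0.73). AT1 markers moved the same way, with a median log2 fold change of -0.64. Of 9 tested, 2 were called lower and 0 higher, and their summed FPKM overlapped between the groups. The part of these markers in the ENaC differences was not tested.

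Sgk1 was at 2.08, 5.35 and 7.44 FPKM in Atg5-/- AT2-BLM, which overlapped the 5.83, 7.93 and 26.6 FPKM of AT2-BLM. Its change of -1.12 (SE 0.54, 95% interval -2.30 to 0.07) was not called, although it met the criterion without AT2-PBS replicate 1 (-1.12), without AT2-BLM replicate 1 (-1.52) and without Atg5-/- AT2-BLM replicate 3 (-1.43), as well as with the Y-linked covariate (-1.28). It was smaller without AT2-BLM replicate 3 (-0.51), and also without the first Atg5-/- AT2-BLM sample (-0.70). Atp1b1 (-0.08), Cftr (0.12) and Nedd4l (0.16) had the smallest differences and were not called. From the lists, none had a gene with an adjusted p under 0.05. Those with the smallest p that were called were Fxyd3 (-1.31, adjusted p = 0.618, limma), St14 (-0.54, 0.607), Ano1 (-1.11, 0.607) and Slc9a3r1 (-0.51, 0.582). All 4 had every Atg5-/- AT2-BLM sample below every AT2-BLM sample, as 13.4% of all genes had groups apart in 1 or the other direction. They were picked by p in this same comparison, so this separation adds no support. St14 and Slc9a3r1 did not meet the criterion without AT2-BLM replicate 3 (-0.47 and -0.45), nor without Atg5-/- AT2-BLM replicate 1 (-0.37 and -0.45), and Fxyd3 did not without either of these (-1.05 and -0.89) or AT2-BLM replicate 1 (-1.22). St14 and Slc9a3r1 were also not called under any of the 3 other scalings (-0.47 to -0.36 and -0.44 to -0.34), and Fxyd3 not after scaling to Cdh1 (-1.09). Others taken by the same rule, Atp1b3 (-0.28), Spint1 (-0.42), Ndfip1 (-0.23), Kcne2 (0.45), Kcnk1 (-0.50), Aqp1 (-0.06) and Aqp5 (-0.41), were not called. Leaving out 1 sample brought some of these past the criterion: Spint1 without AT2-BLM replicate 1 (-0.50) or 2 (-0.51), Kcnk1 without AT2-BLM replicate 1 (-0.66) or the third Atg5-/- AT2-BLM sample (-0.73), and Aqp5 without AT2-BLM replicate 2 (-0.57). With the Y-linked covariate Kcnk1 (-0.60), Aqp5 (-0.55) and Kcne2 (0.56) were called, and Kcne2 was called under the 3 other scalings as well (0.51 to 0.62). In all, 0 of 18 regulators, 0 of 6 potassium channels and 0 of 2 aquaporins were called, and 3 of 16 chloride, bicarbonate and proton transporters were called lower. Of all tested genes 2.04% were called higher and 3.12% lower in this comparison.

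Without injury, Atg5-/- AT2-PBS differed from AT2-PBS in 1 member, Sgk1. It was at 52.5, 52.1 and 45.0 FPKM against 24.1, 6.32 and 9.74 FPKM, with a mean of 49.9 (SD 4.21, n = 3) against 13.4 (SD 9.44, n = 3). The groups were apart, as they were for 28.9% of all genes. Sgk1 rose by 2.02 on the log2 scale (SE 0.54, adjusted p = 0.0302, limma). Of all tested genes 14.1% were called higher, 5.16% lower, and 11.2% had an adjusted p under 0.05, so a call was not rare in this comparison. Higher calls were 73.2% of all calls as deposited, 42.6% after quantile normalization and 97.2% after scaling to Cdh1, with medians over all genes of 0.02, -0.17 and 0.34. Among the 7 libraries with little Eif2s3y the rise was 1.02, and there the 1 remaining AT2-PBS library held 24.1 FPKM. It was 2.38 when the 3 libraries with insulin transcripts were left out. The leukocyte markers moved with Sgk1: 7 of 7 tested were called higher in Atg5-/- AT2-PBS (Ptprc, which encodes CD45, from 7.54 to 8.46 FPKM against 0.0119 to 0.621), as were 4 of 4 fibroblast, 5 of 5 club cell and 5 of 5 liver genes. Of 9 tested AT2 markers 4 were called lower and 1 higher. The part of these cell type markers in the Sgk1 difference was not tested. Day of harvest and genotype cannot be told apart here, since no day is named for this group.

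The other 7 members were not called. ENaC levels without injury were close, with Scnn1a at 18.7, 16.0 and 21.2 FPKM (log2 fold change 0.31, 95% interval -0.32 to 0.94), Scnn1b at 8.10, 14.7 and 7.49 FPKM (0.29, -0.60 to 1.17) and Scnn1g at 4.93, 4.80 and 2.42 FPKM (0.02, -0.87 to 0.92). The interval for each still leaves room for a change of over 1.4-fold. Slc12a2 was at 12.3, 10.5 and 14.7 FPKM (-0.21, SE 0.25), Nedd4l at 4.36, 4.02 and 7.19 FPKM (-0.23, SE 0.30), Cftr at 4.44, 3.66 and 4.93 FPKM (0.19, SE 0.27) and Atp1b1 at 492, 431 and 596 FPKM (0.12, SE 0.16). In the lists, the calls were 3 higher and 0 lower of 8 pump genes, 0 and 1 of 7 protease genes, 2 and 1 of 18 regulators, 0 and 3 of 16 chloride, bicarbonate and proton transporters, 1 and 1 of 6 potassium channels and 1 and 1 of 2 aquaporins. Among all tested genes 14.1% were called higher and 5.16% lower. Hsd11b1, which regenerates active glucocorticoid, rose from 3.92, 2.64 and 1.11 FPKM to 21.2, 36.5 and 25.3 FPKM (3.06, SE 0.49, adjusted p = 0.00115, limma). Fxyd5 (4.57), Kcnn4 (1.34) and Aqp1 (1.66), genes also used by leukocytes or vessels, rose too. Of 2 tested endothelial markers 0 were called here, although their median log2 fold change was 1.08. The part of other cells in these rises was not tested. Slc26a6 (-0.78), Slc26a9 (-0.78), Slc9a3r2 (-0.66) and Kcne2 (-0.94) fell with adjusted p under 0.05, although Slc26a9 (-0.39) and Slc9a3r2 (-0.27) were not called after scaling to Cdh1. Neither protease gene named reached that, with St14 at -0.44 (not called, although it was without Atg5-/- AT2-PBS replicate 3, at -0.49, and when quantile-normalized, at -0.54) and Tmprss2 at -0.55, which lost its call in 6 of the 12 fits that left out 1 sample, with values from -0.44 to -0.57 in those 6, and was not called either when scaled to Cdh1 (-0.19) or when the Y-linked term was fitted (-0.39).

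Within Atg5-/- cells, BLM was compared with PBS. Here 7.66% of all tested genes were called higher, 10.7% lower, and 8.67% had an adjusted p under 0.05. Higher calls were 41.7% of all calls as deposited, 51.8% once quantile-normalized, 30.7% with median-ratio scaling and 4.61% with scaling to Cdh1. Of the members 2 were called higher and 1 lower. Sgk1 fell by 3.21 on the log2 scale (SE 0.54, adjusted p = 0.00323, limma), from 45.0 to 52.5 FPKM down to 2.08 to 7.44 FPKM, and the groups were apart, as for 24.9% of all genes. Scnn1b (0.93, SE 0.41, adjusted p = 0.207) and Scnn1g (1.09, SE 0.41, adjusted p = 0.137) met the criterion of the study but not the adjusted one. Scnn1g was above its PBS samples in every BLM sample, whereas Scnn1b overlapped, with 14.7 FPKM in Atg5-/- AT2-PBS replicate 2 and 13.7 FPKM in Atg5-/- AT2-BLM replicate 2. Neither met the criterion without Atg5-/- AT2-BLM replicate 3 (0.60 and 0.78), nor without Atg5-/- AT2-PBS replicate 3 (0.76 and 0.83), and Scnn1b was not called without AT2-PBS replicate 2 (0.93), Atg5-/- AT2-PBS replicate 1 (0.81) or Atg5-/- AT2-BLM replicate 1 (1.02). With all samples, neither was called after scaling to Cdh1 (0.50 and 0.70) or with the Y-linked covariate (0.62 and 0.67), and Scnn1b was not called after median-ratio scaling (0.84) or with no filter on low values (0.93). Scnn1a had a change of 0.02 (95% interval -0.61 to 0.65), Atp1b1 0.18, Slc12a2 -0.10, Cftr -0.22 and Nedd4l 0.51, none of them called, and the sign for Scnn1a turned after median-ratio or Cdh1 scaling. With the libraries holding insulin transcripts left out, Scnn1b (1.25) was not called and Scnn1g (1.61) was. Nedd4l was called without Atg5-/- AT2-PBS replicate 3 (0.73) or Atg5-/- AT2-BLM replicate 2 (0.79).

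Among the lists, several genes that had risen with BLM in cells with Atg5 passed the adjusted test here as well: Slc26a4 (2.04), Hsd11b2 (0.98), Wnk4 (0.80), Fxyd4 (0.80) and St14 (0.67). The 2 BLM comparisons share no samples, but they come from 1 fit with a shared estimate of spread. No AT2-PBS sample counted toward Fxyd4 passing the filter on low values. Samples of other groups carried it through, so its rise adds no support of its own. Tsc22d3 (GILZ), a glucocorticoid-induced gene whose product protects ENaC from Nedd4l, fell by 0.95 (SE 0.21, adjusted p = 0.0150, limma). Hsd11b1 (-2.64), Fxyd5 (-2.69), Kcnn4 (-1.01) and Aqp1 (-1.45) also fell. These 4 had passed the adjusted test in Atg5-/- AT2-PBS against AT2-PBS, a comparison that shares its Atg5-/- AT2-PBS samples with this one. Usp10, a deubiquitinase, rose by 0.71. In all, 1 pump gene was called higher and 3 lower, 1 protease gene higher and 0 lower, 3 regulators higher and 3 lower, 3 chloride, bicarbonate and proton transporters higher and 0 lower, and 1 each way among the potassium channels and among the aquaporins. Among all tested genes 7.66% were called higher and 10.7% lower. After scaling to Cdh1, St14 (0.23), Usp10 (0.28), Wnk4 (0.45) and Hsd11b2 (0.63) were not called. Cell type markers moved here too. Called lower were 7 of 7 tested leukocyte, 5 of 5 club cell, 4 of 4 fibroblast and 3 of 5 liver genes. Of 9 tested AT1 markers 6 were called higher and 0 lower, beside the rises of Scnn1b and Scnn1g. The part of these markers in the changes of the lists and of the ENaC genes was not tested.

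Whether BLM acted differently in the 2 genotypes was tested as an interaction, for which 5.02% of all genes were called positive, 15.2% negative, and 7.89% had an adjusted p under 0.05. Positive calls were 24.9% of all calls as deposited, 54.8% once quantile-normalized, 35% with median-ratio scaling and 10.6% with scaling to Cdh1. For Sgk1 the BLM effect was 3.13 lower in Atg5-/- cells on the log2 scale (SE 0.77, adjusted p = 0.0284, limma). It was called in each of the 12 fits that left out 1 sample (-3.63 to -2.53), at -3.49 without the libraries with insulin transcripts and at -2.36 among those with little Eif2s3y. For Slc12a2 the interaction was 0.84 (SE 0.35, adjusted p = 0.198): called, but not in 6 of the 12 fits that left out 1 sample (0.58 to 0.83 in those 6), nor after scaling to Cdh1 (0.62), with the Y-linked covariate (0.66), without the libraries holding insulin transcripts (0.76) or among those with little Eif2s3y (0.27). For the ENaC genes it was -0.87 (Scnn1a, 95% interval -1.76 to 0.02), -0.89 (Scnn1b, -2.15 to 0.36) and -0.75 (Scnn1g, -2.02 to 0.51), not called. So the ENaC response was called with all samples in cells with Atg5 for 3 genes and in Atg5-/- cells for 2, but the test of the difference between genotypes was not passed with values as deposited. With a Y-linked covariate in the fit all 3 were called (-1.47, -1.34 and -1.37 in the same order). That covariate is uneven over the groups, since no Atg5-/- AT2-PBS library had Eif2s3y at 1 FPKM or more, so these values lean on the other groups. Without AT2-BLM replicate 3 the 3 interactions were smaller (-0.51, -0.44 and -0.24) and not called. Scnn1a was also called without AT2-BLM replicate 1 (-1.04), without AT2-BLM replicate 2 (-1.06) and without Atg5-/- AT2-BLM replicate 3 (-1.08). Atp1b1 (-0.20), Cftr (-0.07) and Nedd4l (0.39) were not called. Of 9 tested AT1 markers the interaction was called negative for 4 and positive for 0, with a median of -0.43. It was also called negative for 7 of 7 leukocyte markers. The part of these markers in the interactions of the members was not tested.

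The interaction was called positive and negative for 0 and 4 pump genes, 0 and 0 protease genes, 2 and 2 regulators, 4 and 1 chloride, bicarbonate and proton transporters, 1 and 1 potassium channels and 0 and 1 aquaporins. Among all tested genes it was called positive for 5.02% and negative for 15.2%. Genes with an adjusted p under 0.05 included Hsd11b1 (-3.21), Fxyd5 (-4.06), Fxyd3 (-2.56), Kcnn4 (-1.47), Slc9a3r1 (-0.82), Kcne2 (1.39), Slc26a6 (1.16) and Slc9a3r2 (0.88). Kcne2 was at 74.1 FPKM (SD 3.28, n = 3) in AT2-PBS and at 34.0 (SD 6.27) in AT2-BLM, against 39.1 (SD 11.4) and 47.1 (SD 11.4) in Atg5-/- cells. St14 (-0.10), Spint1 (-0.23), Aqp1 (-1.71, adjusted p = 0.0642, limma) and Aqp5 (0.18) did not pass.

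The order of the groups differed from gene to gene. Means of the ENaC genes ran AT2-BLM, Atg5-/- AT2-BLM, Atg5-/- AT2-PBS and AT2-PBS from high to low, and for Scnn1a the only 2 groups apart among the 4 pairs compared were AT2-BLM and AT2-PBS. Atp1b1 had the same order. Slc12a2 ran in the opposite direction for AT2-BLM, which was lowest (7.09 FPKM, SD 0.885), and the other 3 groups overlapped. Sgk1 was highest in Atg5-/- AT2-PBS and lowest in Atg5-/- AT2-BLM, with AT2-PBS and AT2-BLM level between them. Cftr (group means from 3.32 to 4.34 FPKM) and Nedd4l (5.19 to 7.93 FPKM) overlapped in every pair of groups compared. Of 4 ionocyte markers, the cells that are rich in Cftr, the defining factor Foxi1 was listed at 0 in all 12 samples, which cannot be read as absence. Their summed FPKM was 24.7 to 38.2 in AT2-PBS, 13.2 to 13.7 in AT2-BLM, 32.4 to 37.4 in Atg5-/- AT2-PBS and 17.3 to 24.3 in Atg5-/- AT2-BLM. Only 2 of these 4 markers passed the filter on low values.

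Genes whose log2(FPKM + 1) ran most like a member over the 12 samples were named by Pearson correlation, as a description. For Sgk1 these included Mlf1 (r = 0.948) and Mgst1 (0.907). For Atp1b1 they were Slc12a7 (0.959), Epn3 (0.945) and Wbp1l (0.941), for Scnn1a Sdhd (0.975), Capzb (0.969) and Cmpk1 (0.953), and for Cftr Mia (0.798), Hist2h2bb (0.787) and Ccdc191 (0.771). The 12 points share groups, libraries and scaling. Slc12a2 correlated negatively with Scnn1b (-0.804) and with Scnn1g (-0.736).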

How the data were processed

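The 12 samples of AT2 cell RNA were grouped by the labels' titles and descriptions. The authors deposited FPKM per gene from Cufflinks 2.2.1 on mm9. The paper names STAR as aligner and the submitters' processing notes name HISAT2 2.2.1.0, with Trimmomatic 0.36 and HTSeq 0.9.1. The kit is TruSeq, and the sources differ on whether it marked strand. Read counts were not used here, so depth is unknown and no counting interval is given. Steps among low values were too blurred to give a relative depth. The fullest bin of ratios to AT2-PBS replicate 1 held 19 of 979 low values in AT2-PBS replicate 3 and 61 of 1014 in AT2-BLM replicate 3. FPKM summed to 390141 to 549169, so samples were not scaled to a common sum. Replicates of a group correlated at r = 0.938 to 0.987 across genes.

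Log2(FPKM + 1) of the 10675 genes that reached 1 FPKM in 3 samples or more was fitted with limma 3.58.1 (R 4.3.3, eBayes with trend), 12 samples in 1 fit, and p-values were adjusted over all tested genes (Benjamini-Hochberg). The fit was checked on simulated data. Ratios were tested by exact two-sided permutation. Motifs were searched in RefSeq promoters. Figures used matplotlib 3.10.9. From each list the text names genes with an adjusted p under 0.05, or else the 2 with the smallest p. For 4 members it also names the 3 genes with the highest Pearson correlation. Pdpn, Lamp3, Ptprc, Ins2, Eif2s3y, Ddx3y, Kdm5d, Uty, Foxi1, Sftpc and Atg5 are outside this rule. The members, the lists and the tests were chosen with earlier results of these data known. Alternatives tried were quantile, median-ratio and Cdh1 scaling, a pseudocount of 0.1, a replicate block, a fit of the compared groups alone, no filter, no trend, a Y-linked covariate, adjusted p, and each sample left out. 2 subsets of libraries were added after seeing the data. Some genes that the rule names are not reported here. 27 genes carry dates as names and were kept.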

Additional observations from a re-analysis of the deposited data

Results flagged for a closer look

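The effect of BLM on Sgk1 differed between the genotypes in the interaction test, by -3.13 on the log2 scale (SE 0.77, adjusted p = 0.0284, limma). BLM went with a log2 fold change of -0.08 in cells with Atg5 and of -3.21 in Atg5-/- cells, in which 3 of 3 samples were below every Atg5-/- AT2-PBS sample. Groups were apart in that comparison for 24.9% of all genes. In the same fit Sgk1 was 2.02 higher in Atg5-/- AT2-PBS than in AT2-PBS. It had a log2 fold change of -1.12 (not called) in Atg5-/- AT2-BLM against AT2-BLM. The interaction is this second difference minus the first. The 3 libraries of Atg5-/- AT2-PBS all had Eif2s3y under 1 FPKM and the highest sums of leukocyte, club cell, fibroblast and liver markers.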

How the results depend on the processing

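Depth is unknown, groups hold 3 samples, and the scaling moves the median of all genes, so small changes have no settled sign. Causes of the shifts below were not tested. The Y-linked covariate is uneven over the groups, since no Atg5-/- AT2-PBS library had Eif2s3y at 1 FPKM or more. By adjusted p in place of the study criterion, calls over all genes fell from 3031 to 1900 for BLM in cells with Atg5, from 551 to 1 for loss of Atg5 under BLM, from 2058 to 1199 for loss under PBS, from 1962 to 926 for BLM in Atg5-/- cells and from 2156 to 842 for the interaction. Among the 7 libraries with little Eif2s3y, a subset chosen after seeing the data that leaves AT2-PBS and Atg5-/- AT2-BLM with 1 sample each, assumed to vary like the other groups, 1244 genes were called for loss under BLM.

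Leaving out 1 sample at a time, called members stayed at 4 for BLM in cells with Atg5 (4 to 4) and at 1 for loss under PBS (1 to 1), and ranged from 0 to 5 for loss under BLM, 1 to 4 for BLM in Atg5-/- cells and 1 to 3 for the interaction. Called members for loss under BLM, 1 as reported, were 0 after Cdh1 scaling, 4 with the Y-linked covariate, 2 among the libraries with little Eif2s3y and 0 by adjusted p. For loss under PBS, 1 as reported, they were 2 after Cdh1 scaling, 2 with the Y-linked covariate and 2 with little Eif2s3y. For BLM in Atg5-/- cells, 3 as reported, they were 1 after Cdh1 scaling, 1 with the covariate and 1 by adjusted p. For the interaction, 2 as reported, they were 1 after Cdh1 scaling, 4 with the covariate, 1 without the insulin-containing libraries (also chosen after seeing the data) and 1 by adjusted p.

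The replicate numbers did not pair the samples: over 18 pairs the correlation of deviations ran from -0.295 to 0.227, and 4 exceeded 0.1. With the replicate block, called members for loss under BLM were 2, since Scnn1a was called (-0.5649). The replicate block also brought the Scnn1a interaction past the criterion (-0.8721), as it did Kcnk1 for loss under BLM (-0.5003), and took the Slc12a2 interaction (0.8363) and Scnn1b for BLM in Atg5-/- cells (0.9258) out of it.

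Log2 fold changes that turned sign, none of them called as reported, were these. For BLM in cells with Atg5, Nedd4l was -0.0655 (quantile), -0.0533 (median-ratio) and -0.0867 (Cdh1), and Sgk1 was 0.0851 with the covariate. For loss under BLM, Atp1b1 was 0.0122 (quantile) and 0.0967 (Cdh1), and Aqp1 0.0481 (Cdh1). For loss under PBS, Scnn1g was -0.1606 (quantile) and -0.0041 (median-ratio), Atp1b1 -0.0731 (quantile), Slc12a2 0.1576 (Cdh1) and Nedd4l 0.1055 (Cdh1). For BLM in Atg5-/- cells, Scnn1a was -0.0699 (median-ratio), -0.4184 (Cdh1) and -0.3904 (covariate), and Atp1b1 -0.2865 (Cdh1). For the interaction, Cftr was 0.1010 (quantile), 0.0059 (median-ratio) and 0.0568 (covariate), Atp1b1 0.0853 (quantile), St14 0.1086 (quantile) and 0.0032 (median-ratio), and Aqp5 -0.0466 (Cdh1) and -0.2261 (covariate).

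With 1 sample left out, signs turned within these ranges. For BLM in cells with Atg5 they were -0.3171 to 0.1075 (Cftr), -0.0969 to 0.2897 (Nedd4l), -0.6829 to 0.4252 (Sgk1) and -0.0841 to 0.6560 (Aqp1). For loss under BLM they were -0.1392 to 0.3033 (Cftr), -0.1683 to 0.0206 (Atp1b1), -0.0510 to 0.4426 (Nedd4l) and -0.3493 to 0.2915 (Aqp1). For loss under PBS they were -0.1147 to 0.2819 (Scnn1g), -0.0026 to 0.2300 (Atp1b1) and -0.3626 to 0.0174 (Slc12a2). For BLM in Atg5-/- cells they were -0.1887 to 0.2422 (Scnn1a) and -0.3622 to 0.0430 (Slc12a2), and for the interaction -0.3300 to 0.1125 (Cftr) and -0.2503 to 0.0664 (St14).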
